A study of Homo sapiens with 6 samples.

Results

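The DNA mismatch repair genes MSH6, MSH3, PMS2, PMS1 and MLH3 were followed in HCT116 cells, a widely used line from a human colorectal carcinoma that is known to be deficient in mismatch repair. Members were taken from the table by gene symbol, and all 5 are among the 25662 genes of the deposited table. The study holds 3 control libraries, which per the labels received DMSO and are titled 0 h, and 3 libraries from cells treated with BMH-21 at 1 µM during 24 h. This compound intercalates into DNA and blocks RNA polymerase I. All libraries come from this single cell line grown in McCoy's medium with serum. Whether the controls were kept in culture for 24 h is not stated, so time and drug cannot be told apart if they were not. Values are TPM, a gene's share of the transcripts of its library after division by transcript length.

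Mismatch repair removes bases that DNA polymerases insert wrongly and the small loops they leave at repeats. MutS heterodimers find the error: MSH6 is the variable subunit of MutS-alpha, which reads base mismatches and small loops, and MSH3 that of MutS-beta, which reads larger loops. MutL heterodimers follow, with PMS2 in MutL-alpha, PMS1 in MutL-beta and MLH3 in MutL-gamma. PMS2 and MLH3 carry an endonuclease that nicks the faulty strand, PMS1 does not, and MLH3 is best known for its part in meiotic crossing over. EXO1 then digests the nicked strand, and the replication clamp, its loader, DNA polymerase delta and DNA ligase I fill and seal the gap. Loss of mismatch repair makes repeated sequence unstable, which in colorectal cancer is called microsatellite instability.

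The longest runs of a single base in the coding sequence are shown first, because such runs are where a mismatch repair deficient cell line is prone to frameshifts. They were read from the longest complete coding transcript of each gene in GENCODE release 29 (GRCh38), 5′ to 3′, with the run in capitals and 10 bases to each side.
MSH6 coding run: ccggaagataCCCCCCCCttcttagagc
MSH3 coding run: tgttagggacAAAAAAAAgggcaacatt
PMS2 coding run: actggagaagAAAAAAAAgacgtgtcca
PMS1 coding run: actcaactgcAAAAAAAtgtaaagatg
MLH3 coding run: agagaaagagAAAAAAAAAgaatctagca
The MSH6 run lies in exon 5 of 10 on the plus strand (chr2:47803501-47803508) and the MSH3 run in exon 7 of 24 on the plus strand (chr5:80675096-80675103). The PMS2 run lies in exon 11 of 15 on the minus strand (chr7:5987526-5987533), the PMS1 run in exon 5 of 13 on the plus strand (chr2:189818084-189818090), and the MLH3 run in exon 2 of 13 on the minus strand (chr14:75047901-75047909). The run is 8 bases long in MSH6, MSH3 and PMS2, 9 in MLH3 and 7 in PMS1. Runs of at least 8 bases were present in 626 of 5251 genes with a coding sequence of at least 2000 bases (11.9%), and the median longest run of those genes was 6 bases. HCT116 is known to carry a frameshift in the run of MSH3. These letters are of the reference genome, and the sequence of the RNA in these libraries was not analysed here.

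MSH6 fell after BMH-21, and it was the only member that passed the test. MSH6 and MSH3, the MutS members, stood at opposite ends of the level order in control cells, while the MutL members PMS2, PMS1 and MLH3 lay between. Of the 5 members, 3 had at least 1 TPM in at least 3 of the 6 libraries and were tested, with limma on log2(TPM + 1) and Benjamini-Hochberg adjustment over all 12041 genes that met this filter. Of these 3, MSH6 was lower and 0 were higher at an adjusted p under 0.05 (by limma, 1 of the 3 had an unadjusted p under 0.05), against 36.4% of all genes tested called in either direction and 16.9% called lower. With so few members this share is not a result about the group. The median log2 difference of the 3 was 0.19, against 0.06 for all genes tested.

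MSH6 (ENSG00000116062.14, chromosome 2, 47695530 to 47810101) was at 10.1, 17.0 and 16.6 TPM in control replicates 1 to 3, and at 2.50, 2.53 and 3.72 TPM in BMH-21 replicates 1 to 3. The groups did not overlap: the lowest control library, replicate 1, was still above the highest treated library, replicate 3. The mean went from 14.6 ± 3.9 to 2.92 ± 0.70 TPM (SD, n = 3 per group), which is 5.00-fold lower, with a log2 difference of -1.97 (SE 0.23, 95% interval -2.49 to -1.46, limma adjusted p = 0.00024). Of all genes tested, 1.83% had a log2 difference as low or lower. The mean of MSH6 exceeded that of 79.6% of all listed genes in controls and 62.7% after BMH-21. In bulk RNA, fewer cells that express a gene and less of its RNA per cell cannot be told apart. Groups without overlap and with the treated libraries lower made up 22.0% of all genes tested.

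Control replicate 1 and BMH-21 replicate 3, the libraries in which MSH6 lay nearest to the other group, stood apart over all genes. Squared deviations from their group's mean, averaged over genes in log2 units, came to 0.0586 and 0.0696, against 0.0274 to 0.0331 in the other 4 libraries, and mitochondrial transcripts took 25.8% and 26.1% of their TPM, against 20.3% to 21.6%. Without both, the log2 difference of MSH6 was -2.34 (limma adjusted p = 1.0e-05). Leaving out the libraries nearest to the other group can only widen the difference, so this is no separate check. The 3' part of the annotated MSH6 locus overlaps FBXO11 on the opposite strand over 20786 bases, and the strand setting of the counting is not given in the sources used here, so reads there may not be told apart. FBXO11 encodes a ubiquitin ligase subunit and was picked for mention with its value known. Its mean was 8.14 ± 0.65 TPM in controls and 5.42 ± 2.14 TPM in treated cells (SD, n = 3; limma adjusted p = 0.0865). Its log2 difference was -0.56, and it passed the test without BMH-21 replicate 3, at -0.81 (limma adjusted p = 0.0035).

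MSH3 (ENSG00000113318.9, chromosome 5, 80654648 to 80876460) was the lowest member in every library. It was at 0.23, 0.23 and 0.35 TPM in controls and at 0.22, 0.21 and 0.12 TPM after BMH-21. All 6 values lay below 1 TPM. The highest treated value was only just under the lowest control value, an absence of overlap seen in 22.0% of all genes tested. The means were 0.27 ± 0.07 and 0.18 ± 0.06 TPM (SD, n = 3). On the log2(TPM + 1) scale the difference was -0.10, and an exact two-sided permutation test over the libraries gave p = 0.10, the smallest value that 3 against 3 allow. The difference rested in part on single libraries, being -0.06 without control replicate 3, the highest control, and -0.06 without BMH-21 replicate 3, the lowest treated library. Tested without the filter on low values, where 8.85% of 21753 genes were called lower, MSH3 had a limma adjusted p of 0.32. At such levels a pseudocount of 1 hides most of any change, and with 0.1 the difference was -0.39.

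Among the MutL members, PMS2 (ENSG00000122512.15, chromosome 7, 5973239 to 6009125) had the highest level. It was at 6.28, 8.36 and 10.6 TPM in controls and at 10.1, 7.22 and 12.7 TPM after BMH-21, so the groups overlapped. The mean was 8.42 ± 2.18 and 9.99 ± 2.72 TPM (SD, n = 3), a log2 difference of 0.22 with a 95% interval from -0.31 to 0.75 (limma adjusted p = 0.50). The value was 0.04 without control replicate 1, 0.04 without BMH-21 replicate 3, 0.38 without control replicate 3 and 0.41 without BMH-21 replicate 2. Its direction turned when both control replicate 1 and BMH-21 replicate 3 were dropped, to -0.13 (adjusted p = 0.55). PMS2 has near-identical copies elsewhere in the genome, and the table lists 12 of them. Their summed TPM was 90.0% to 135% of that of PMS2 in controls and 70.1% to 94.3% after BMH-21, so the split of reads between PMS2 and its copies is uncertain.

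PMS1 (ENSG00000064933.17, chromosome 2, 189784085 to 189877629) was at 1.44, 2.82 and 2.48 TPM in controls and at 2.96, 2.74 and 2.28 TPM after BMH-21. Control replicate 1 was the lowest library, and the other 5 lay between 2.28 and 2.96 TPM. The log2 difference was 0.19 with a 95% interval from -0.26 to 0.65 (limma adjusted p = 0.48), and it was 0.00 without control replicate 1 and 0.33 without control replicate 2. These intervals for PMS2 and PMS1 do not reach a fall of the size seen for MSH6.

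MLH3 (ENSG00000119684.15, chromosome 14, 75013764 to 75051532) was at 0.75, 0.77 and 0.75 TPM in controls, a spread of 0.01 TPM (SD, n = 3). After BMH-21 it was at 1.07, 0.97 and 1.40 TPM, and each of these values was above each control, as in 29.6% of all genes tested. The means were 0.76 and 1.15 TPM, 1.52-fold apart, and the exact two-sided permutation test gave p = 0.10, again the smallest value possible. MLH3 reached 1 TPM in 2 libraries, both treated, and so was not kept. Without the filter on low values its limma adjusted p was 0.16, where 9.28% of genes were called higher. Its log2 difference was 0.29, and 0.53 with a pseudocount of 0.1.

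**Figure D1:**
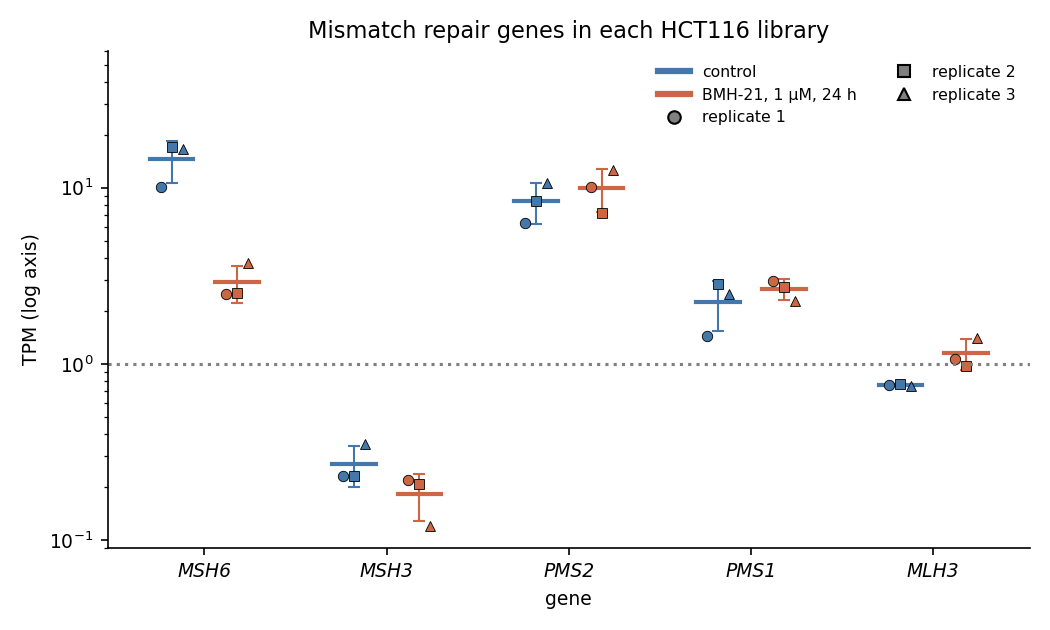
TPM of the 5 mismatch repair genes in each library, on a log axis; symbols mark the replicate, thick bars the mean and thin bars the SD of 3 libraries, and the dotted line is at 1 TPM. MSH6 drops from between 10.1 and 17.0 TPM to between 2.50 and 3.72 TPM, MSH3 stays below 1 TPM in all 6 libraries, and PMS2 and PMS1 overlap between the groups.

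The order of the levels differed between the groups in the place of MSH6. In controls it ran MSH6, PMS2, PMS1, MLH3 and MSH3, where MSH6 and PMS2 overlapped between libraries and the other neighbours did not. After BMH-21 it ran, by the means, PMS2, MSH6, PMS1, MLH3 and MSH3, and there MSH6 and PMS1 overlapped. PMS1 was above MSH6 in BMH-21 replicates 1 and 2 (2.96 against 2.50 and 2.74 against 2.53 TPM). Only in replicate 3 was MSH6 the higher, at 3.72 against 2.28 TPM. The position of MSH6 among all genes tested is shown in the histogram of log2 differences.

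**Figure D2:**
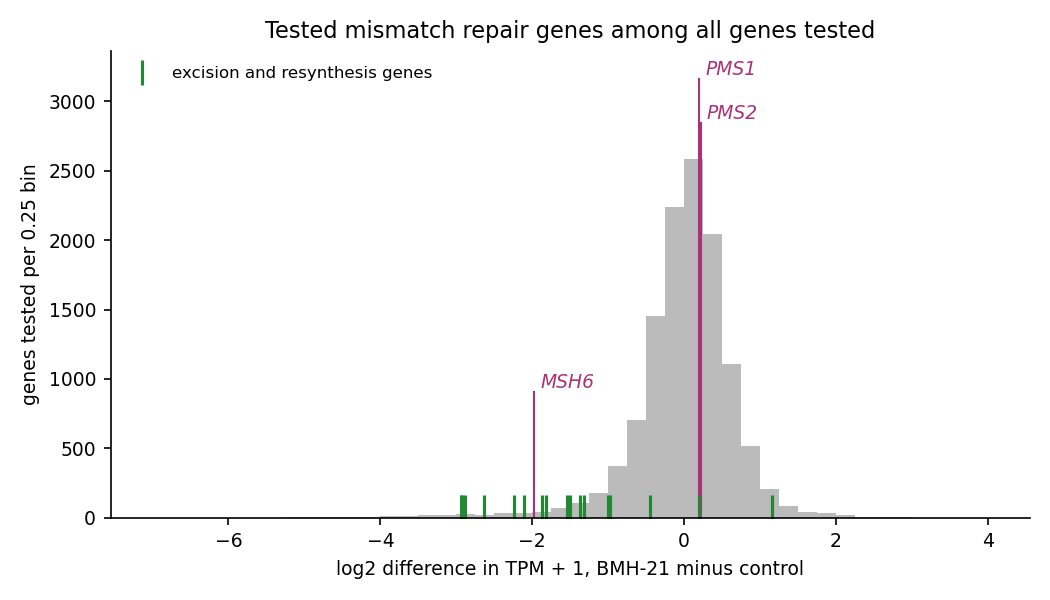
Number of tested genes per bin of 0.25 in the log2 difference, BMH-21 minus control (grey bars, 12041 genes), with MSH6, PMS1 and PMS2 as vertical lines whose height has no meaning and 17 genes of excision and resynthesis as green ticks. MSH6 stands in the left tail at -1.97, while PMS1 and PMS2 stand at 0.19 and 0.22, near the median of 0.06.

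MSH6 and MSH3 take alternative places beside a shared partner, so their ratio within a library was compared, which needs no scaling between libraries. MSH6 had 43.9, 74.0 and 47.2 times the TPM of MSH3 in controls, and 11.4, 12.1 and 31.2 times after BMH-21. The groups did not overlap, and BMH-21 replicate 3, the library with the least MSH3, lay nearest to the controls. The mean log2 ratio went from 5.74 ± 0.41 to 4.02 ± 0.82 (SD, n = 3), a difference of -1.72 with an exact two-sided permutation p = 0.10, the smallest value possible. As a share of the summed TPM of both genes, MSH3 was 1.88% ± 0.48 in controls and 6.27% ± 2.75 after BMH-21 (SD, n = 3). Adding 1 TPM to both values gave a log2 difference of -1.87. The larger share of MSH3 came from the fall of MSH6, because the mean of MSH3 itself went down, from 0.27 to 0.18 TPM. MSH3 ranged only from 0.12 to 0.35 TPM over all libraries and depth is unknown, so its ratio and share are uncertain. HCT116 is known to carry a frameshift in the coding run of MSH3, as stated above. The ratio and share are of RNA only, and the amounts of MutS-alpha and MutS-beta were not measured.

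The share of each MutL member in their sum overlapped between the groups. Of the summed TPM of PMS2, PMS1 and MLH3, PMS2 held 73.6% ± 3.41 in controls and 71.6% ± 5.71 after BMH-21 (SD, n = 3). PMS1 held 19.5% ± 3.59 and 20.0% ± 5.65, and MLH3 6.90% ± 1.80 and 8.34% ± 0.67. The sum of the MutL members was 11.4 ± 2.73 and 13.8 ± 2.72 TPM, while that of MSH6 and MSH3 was 14.9 ± 3.93 and 3.10 ± 0.64 TPM.

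**Figure D3:**
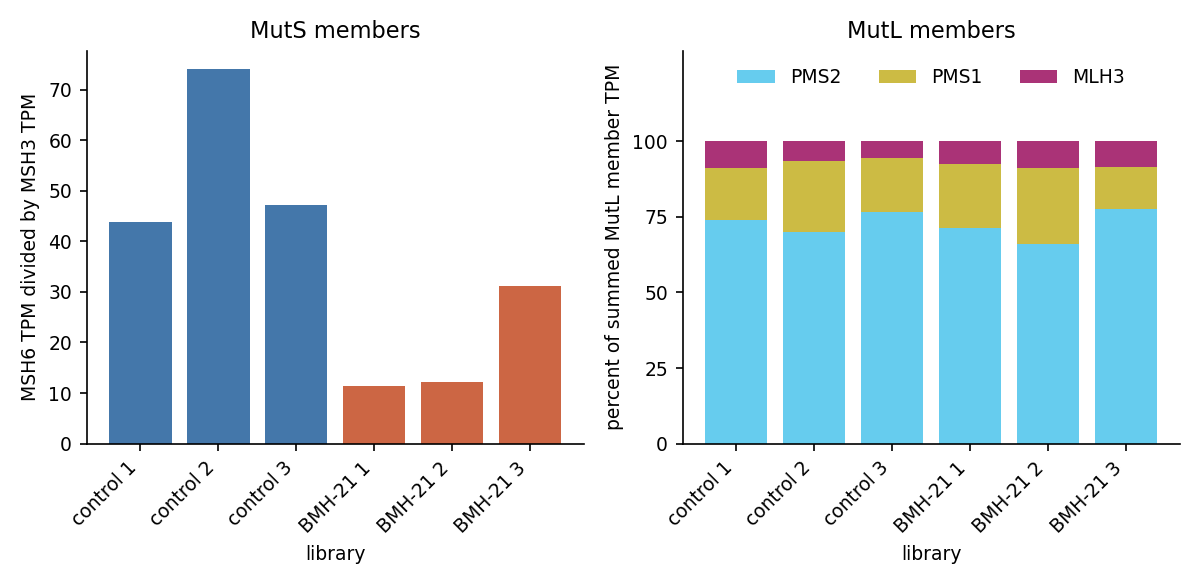
Left, the ratio of MSH6 to MSH3 TPM in each library; right, the percentage of the summed TPM of PMS2, PMS1 and MLH3 that each of them held. The ratio is 43.9 to 74.0 in the controls and 11.4 to 31.2 after BMH-21, while PMS2 holds the largest share of the MutL sum in all 6 libraries.

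PMS1 and PMS2 each share their start region with a gene on the opposite strand that runs the other way. By GENCODE release 29, the start of ORMDL1 lies 286 bases from that of PMS1, and the start of AIMP2 120 bases from that of PMS2. ORMDL1 also overlaps PMS1 at the 5' end, by 287 bases. MSH6 and MLH3 have no such neighbour within 1000 bases of the annotated gene start. The MSH6 start used by RefSeq lies inside the annotated gene, and no search for neighbours was made around it. Promoter windows of 250 bases before to 50 bases after the gene start were read from RefSeq (GRCh38.p14), which holds all 5 members. They were searched on both strands for the core sites of E2F, the transcription factor family of the G1/S program: TTTCCCGC, TTTGGCGC, TTTCGCGC and TTTGCCGC. Windows with a match are shown with the match in capitals, for MSH6, which fell, and for PMS2, which did not pass the test.
MSH6 promoter: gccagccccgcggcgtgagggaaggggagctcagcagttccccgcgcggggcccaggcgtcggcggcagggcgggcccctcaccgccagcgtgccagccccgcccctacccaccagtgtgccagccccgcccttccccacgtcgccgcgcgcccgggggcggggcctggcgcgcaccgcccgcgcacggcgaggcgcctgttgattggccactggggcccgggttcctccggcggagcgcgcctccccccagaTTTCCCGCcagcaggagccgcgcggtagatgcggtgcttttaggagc
PMS2 promoter: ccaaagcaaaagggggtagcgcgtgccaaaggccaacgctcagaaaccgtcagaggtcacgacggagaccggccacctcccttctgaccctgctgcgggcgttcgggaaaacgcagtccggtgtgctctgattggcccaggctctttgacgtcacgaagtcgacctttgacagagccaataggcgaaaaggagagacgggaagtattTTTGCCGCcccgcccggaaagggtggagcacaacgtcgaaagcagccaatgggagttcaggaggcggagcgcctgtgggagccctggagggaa
The MSH6 window is chr2:47782895-47783194 on the plus strand and the PMS2 window chr7:6009057-6009356 on the minus strand. The MSH6 match begins 3 bases after the start. The MSH3 window holds a pair of matches on opposite strands, TTTGGCGC and TTTCGCGC, which overlap and lie 107 to 96 bases before the start. The PMS2 match lies 43 to 36 bases before the start and is also within the window of AIMP2. No match was found in the windows of PMS1 and MLH3. A match was present in 3.33% of all 27305 RefSeq windows and in 5.42% of the 9455 windows of genes tested. By call, it was present in 8.44% of windows of genes called lower, 5.19% of genes not called and 3.44% of genes called higher. These matches are a description of the letters, and whether a factor was bound was not measured.

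The neighbours of PMS1 and PMS2 did not pass the test. ORMDL1, a regulator of sphingolipid synthesis, was at 9.18, 8.30 and 6.82 TPM in controls and at 10.4, 9.27 and 10.9 TPM after BMH-21. The groups did not overlap, as in 29.6% of all genes tested in this direction. The log2 difference of ORMDL1 was 0.31 (limma adjusted p = 0.15). In the fit of the 4 other libraries, control replicate 1 and BMH-21 replicate 3 being dropped, it passed, at 0.35 (adjusted p = 0.044). AIMP2, a scaffold of the multi-aminoacyl-tRNA synthetase complex, was at 51.9 ± 2.95 and 49.8 ± 0.76 TPM (SD, n = 3), with a log2 difference of -0.06 (limma adjusted p = 0.61).

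**Figure D4:**
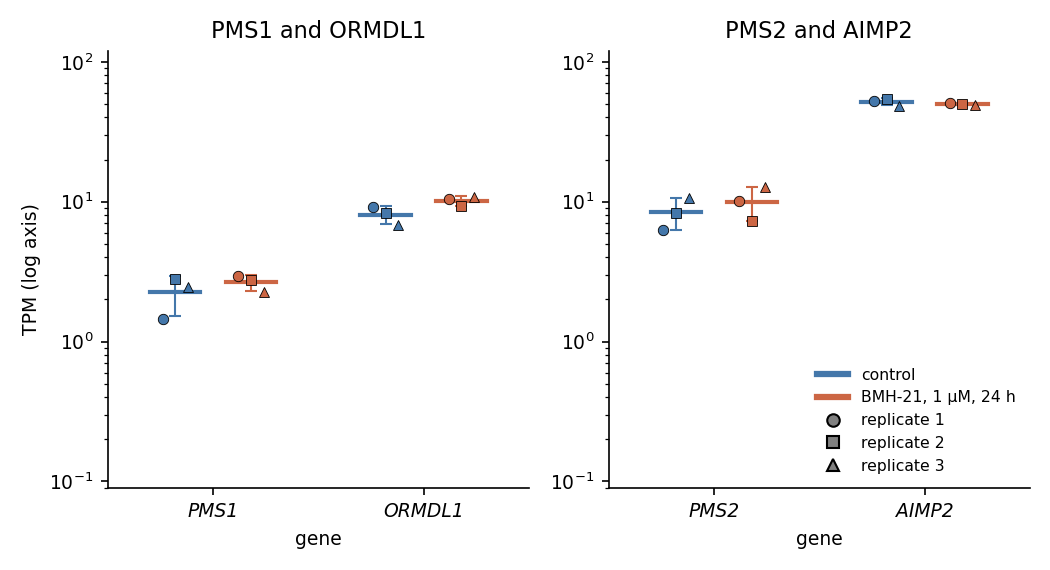
TPM in each library, on a log axis, of PMS1 and PMS2 beside the gene that starts next to each on the opposite strand; symbols mark the replicate, thick bars the mean and thin bars the SD of 3 libraries. ORMDL1 lies between 6.82 and 9.18 TPM in controls and between 9.27 and 10.9 TPM after BMH-21, while AIMP2 overlaps between the groups.

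MSH5 and MSH4 are MutS homologs of meiosis. MSH5 was nonetheless at 9.93, 10.6 and 12.1 TPM in controls, and fell to 3.58, 4.63 and 5.56 TPM after BMH-21. The groups did not overlap, as in 22.0% of all genes tested in this direction. The log2 difference of MSH5 was -1.10 (SE 0.18, limma adjusted p = 0.0015). MSH5 overlaps a read-through transcript, MSH5-SAPCD1, which ranged over 0.60 to 1.96 TPM in controls and over 0.27 to 0.64 TPM in treated cells. It was named with its values known, and both may share reads. MSH4 was at or below 0.15 TPM in all 6 libraries and was not tested.

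Most genes of a list of excision and resynthesis fell together with MSH6. Of 17 genes of excision and resynthesis, all tested, 15 were lower, 1 was higher and 1 was not called, against 16.9% and 19.4% of all genes tested that were called lower and higher. The median log2 difference of the list was -1.54, against 0.06 for all genes tested. EXO1, the exonuclease of the pathway, was at 6.72, 11.5 and 10.4 TPM in controls and at 0.58, 0.33 and 0.18 TPM after BMH-21. Its log2 difference was -2.93 (SE 0.22, limma adjusted p = 1.7e-05), which understates the 26.3-fold ratio of the means and was -4.44 with a pseudocount of 0.1. PCNA, the sliding clamp that ties repair to the replication fork, was at 262, 299 and 311 TPM and after BMH-21 at 101, 99.5 and 156 TPM, a log2 difference of -1.31 (adjusted p = 0.00041).

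The clamp loader subunits RFC4, RFC5 and RFC2 had control means of 28.7 ± 1.63, 89.1 ± 11 and 100.4 ± 4.69 TPM (SD, n = 3) and fell to 2.93 ± 0.80, 11.1 ± 0.67 and 15.3 ± 1.09 TPM. In the same list, POLD4, the smallest subunit of DNA polymerase delta, rose from 24.5 ± 4.82 to 55.4 ± 6.35 TPM (limma adjusted p = 0.00041), while the other subunits POLD1, POLD2 and POLD3 fell. SSBP1, which binds single-stranded DNA in mitochondria, did not pass the test (log2 difference 0.20), and passed as higher without BMH-21 replicate 3, at 0.32 (adjusted p = 0.0066). The DNA polymerase delta subunits and SSBP1 were named with their values known.

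Of 10 genes with a looser tie to mismatch repair, all tested, 3 were lower, 1 was higher and 6 were not called. Over all genes tested, 16.9% were called lower and 19.4% higher, so with 10 genes these counts are not a result about the list. Its median log2 difference was -0.46, against 0.06 for all genes tested. RNASEH2A and RNASEH2C, subunits of the enzyme that removes ribonucleotides from DNA, had log2 differences of -2.55 and -0.69, and MCM8, a helicase of the MCM family, one of -1.23. POLH, which encodes DNA polymerase eta, a translesion polymerase, rose from 6.19 ± 0.31 to 12.1 ± 4.65 TPM (SD, n = 3; limma adjusted p = 0.024). Dropping both control replicate 1 and BMH-21 replicate 3, 7 were lower and 1 was higher. In that fit 4144 of all 12041 genes tested were lower and 2917 higher, so these counts too are not a result about the list.

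**Figure D5:**
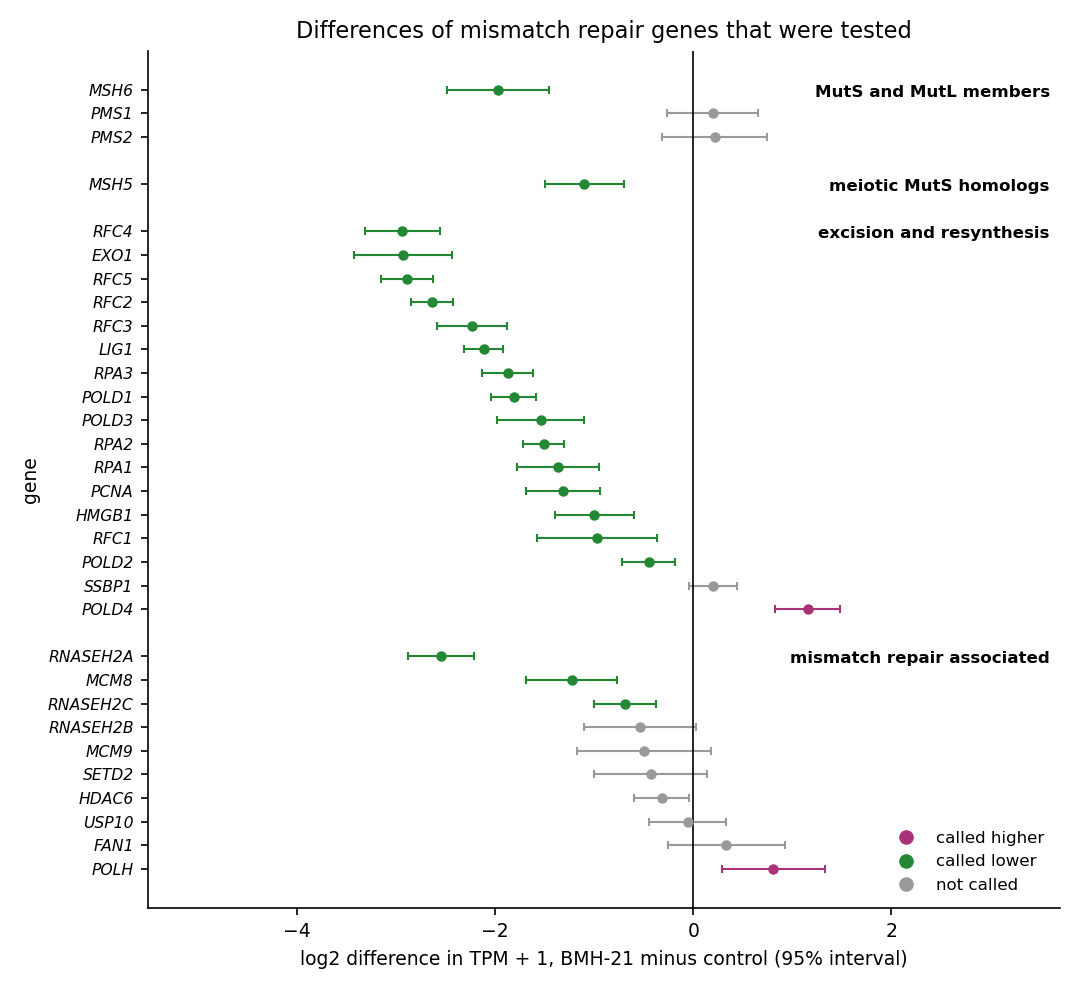
Log2 difference in TPM + 1, BMH-21 minus control, with its 95% interval (not adjusted for the number of genes), for the tested members and 3 other lists. These are MutS homologs of meiosis, genes of excision and resynthesis, and genes with a looser tie to mismatch repair. Colour gives the call at an adjusted p under 0.05. MSH6 at -1.97 lies among the excision and resynthesis genes, of which 15 are lower, and PMS1 and PMS2 lie just above 0.

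Levels of proliferation genes moved in the same libraries. All 11 proliferation genes of a list were lower, against 16.9% of all genes tested. Their median log2 difference was -3.93, against 0.06 for all genes tested. Without control replicate 1 and BMH-21 replicate 3 these medians were -3.81 and -0.07. MKI67 went from 19.9 ± 5.90 to 0.23 ± 0.01 TPM (SD, n = 3). CCNB1, CCNA2 and MCM2, of the cell division cycle, had log2 differences of -4.45, -4.10 and -3.99. CDKN1A and MDM2, targets of p53, had log2 differences of 3.40 and 3.12. The part of proliferation in the fall of MSH6 was not tested.

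The genes whose pattern over the 6 libraries was most like that of MSH6 were WEE1, CDCA7 and PASK, by the Euclidean distance between mean-centred log2(TPM + 1) values among 8099 genes with a mean of at least 5 TPM. Their distances were 0.21, 0.26 and 0.30, against a median of 2.55 over those genes. WEE1, a kinase that restrains CDK1, was at 15.4, 22.9 and 21.3 TPM in controls and at 3.41, 3.41 and 5.33 TPM after BMH-21. Its lowest control and highest treated libraries were the same as for MSH6. WEE1 was picked by its likeness over these libraries, so this is no separate result. SDHD, KATNBL1 and SRP9 were nearest to PMS1, and LHFPL2, KPNA4 and MED4 to PMS2, at distances of 0.09 to 0.25. The median distances were 0.77 for PMS1 and 0.83 for PMS2. PSMD4, TSPAN17 and FGFBP1 were nearest to MSH3, and MED10, P4HA2 and CDK10 to MLH3, at distances of 0.05 to 0.08. There the medians were only 0.66 and 0.62. A pseudocount of 1 flattens genes at such levels, so these distances do not show a closer likeness than that of MSH6.

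The labelled colorectal epithelial origin was checked by markers. Of 6 epithelial genes, KRT8, KRT18 and KRT19 were at 967 TPM or more in every library, and VIL1 was at or below 0.27 TPM. The summed epithelial level was 5066 to 5271 TPM in controls and 11276 to 12876 TPM after BMH-21. Of the 5 tested, 4 were higher (KRT8, KRT18, KRT19 and CDX2), against 19.4% of all genes tested, and CDH1 was not called. Fibroblast genes summed to 3.64 to 4.76 TPM and then 1.83 to 3.23 TPM, with COL1A2, DCN and LUM at 0 in every library. Leukocyte genes in the table, CD3E and CD68, summed to 3.0 to 3.96 and then 0.29 to 0.74 TPM, almost all of it CD68, and endothelial genes to 0.14 to 0.17 and then 0.17 to 0.19 TPM.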

How the data were processed

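RNA of 3 control and 3 BMH-21 libraries was sequenced after Trizol extraction and random hexamer priming, per the labels' protocols. The labels name polyA RNA as the molecule, while the protocol describes ribosomal RNA removal. The authors deposited TPM values per gene and library. Per the submitters' processing notes, STAR, Salmon and GRCh38 were used. Annotation and strand setting were not given in the sources used here. TPM totals were 990744 to 992038 per library, so depth is unknown and no interval on counts can be had.

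Differences were fitted with limma 3.58.1 in R 4.3.3 on log2(TPM + 1), with an intensity trend and no covariate, over 12041 genes with at least 1 TPM in at least 3 libraries. Tests were two-sided, the Benjamini-Hochberg adjustment covered all genes tested, and the call threshold was 0.05. The fit was tested on simulated data. A fold on the log2(TPM + 1) scale understates the change of low genes. The design text calls the replicates biological.

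The members and gene lists were chosen with earlier results of these data known. Named genes were all members, their divergent neighbours, up to 4 called genes of each list with the largest change, or the 2 with the highest mean where none was called, 5 fixed genes, and the 3 genes most alike in pattern to each member. The members and lists do not cover every mismatch repair gene, and some genes that the rule would name are not reported here. Alternatives covered the pseudocount, filter, scaling, variance trend, replicate block and left-out libraries. Coordinates are 1-based, from GENCODE release 29 (GRCh38), and 16402 symbols of the table had a RefSeq promoter (GRCh38.p14).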

Additional observations from a re-analysis of the deposited data

How the results depend on the processing

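MSH6 kept its direction and its call in all 17 alternatives, with log2 differences from -2.34 to -1.85 and limma adjusted p from 2.6e-07 to 0.0025. In each of these, 1 member was lower and 0 were higher. The value of -2.34 came without control replicate 1 and BMH-21 replicate 3 together, where a wider difference for MSH6 was fixed in advance. PMS1 passed the test in none of the 16 in which it was tested (adjusted p 0.31 to 0.995; it was not kept by the filter at 5 TPM), PMS2 in none of 17 (0.235 to 0.902), and PMS2 turned to -0.13 without control replicate 1 and BMH-21 replicate 3 together. In that setting 4144 genes were lower in place of 2040 and 2917 higher in place of 2340. There 2 excision genes were higher in place of 1. Leaving out each library in turn gave 1 to 2 excision genes higher and 13 to 15 lower, and the second higher gene, SSBP1, passed without BMH-21 replicate 3. With a pseudocount of 0.1 the difference was 0.53 for MLH3 and -0.39 for MSH3. The ratio of MSH6 to MSH3 stayed lower in all 7 alternatives, at -2.19 to -1.46 on the log2 scale (exact two-sided permutation p 0.10 to 0.20). The alternative with 1 TPM added to both values mostly restates the fall of MSH6, as MSH3 was below 1 TPM. The cause of these moves was not tested.

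With the replicate number as a block, 2503 genes were higher and 2105 lower, and the log2 difference of MSH6 was -1.97 (adjusted p = 2.6e-07). FBXO11 passed under the block (adjusted p = 0.0475), under the trimmed mean, median of ratios and quantile scalings, and without BMH-21 replicate 3, alone or together with control replicate 1. Deviations of libraries with the same number correlated at 0.04, -0.14 and 0.02, so the number is not shown to pair the libraries, and not every library correlated best with its own number. The levels of MSH3 and MLH3 limit what can be said of them, since depth is unknown.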

Other observations

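Base excision repair removes damaged single bases. Of 19 of its genes, all tested, 10 were lower, 2 were higher and 7 were not called, against 16.9% lower and 19.4% higher among all genes tested. Their median log2 difference was -0.58, and that of all genes tested 0.06. FEN1, the flap endonuclease that it shares with DNA replication, was at 119, 123 and 124 TPM in controls and at 6.12, 6.43 and 5.84 TPM after BMH-21 (log2 difference -4.11, limma adjusted p = 5.25e-08). NEIL3, a DNA glycosylase, fell from 4.78 ± 0.99 to 0.12 ± 0.07 TPM (SD, n = 3), and UNG, which removes uracil from DNA, from 141 ± 7.11 to 31.7 ± 1.92 TPM. PARP2 had a log2 difference of -1.98. The higher genes were POLB, the gap-filling polymerase, which rose from 27.4 ± 0.24 to 39.6 ± 4.26 TPM (adjusted p = 0.0047), and SMUG1, a uracil glycosylase, with a log2 difference of 0.29. SMUG1 and POLB were picked with their values known. Without control replicate 1 and BMH-21 replicate 3, 14 were lower and 2 higher. Over all 12041 genes tested, 4144 were lower and 2917 higher in that fit, more than in the main fit.

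Of 3 enzymes of direct reversal of alkylation damage, 0 were called by limma, against 36.4% of all genes tested. By limma, 0 of the 3 had an unadjusted p under 0.05. With 3 genes these counts are not a result about the list. The groups did not overlap for 2 that were higher and 1 that was lower, as in 29.6% and 22.0% of all genes tested. ALKBH2 and ALKBH3 were at 38.2 ± 1.00 and 15.3 ± 2.38 TPM in controls and at 41.7 ± 0.46 and 18.5 ± 0.91 TPM after BMH-21 (SD, n = 3). MGMT, which reverses the O6-methylguanine lesion that mismatch repair reads, was at 16.9 ± 0.31 and 14.9 ± 2.02 TPM (log2 difference -0.18, adjusted p = 0.31). It too was picked with its value known.

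A coding run of at least 8 bases was present in 4 of the 5 members, against 11.9% of genes with a coding sequence of at least 2000 bases.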
